A study of Bos taurus with 10 samples.

Results

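Reduced representation bisulfite sequencing (RRBS), which reads cytosine methylation in fragments cut by the enzyme MspI at CCGG, was compared between rumen and abomasum of cattle (Bos taurus). The rumen DNA came from a male fetus at d 180 and the abomasum DNA from a juvenile female, both from 1 Hereford family (a cow and animals related to her), and each tissue of the series was 1 library. Stomach compartment, stage, sex, animal and library therefore cannot be told apart, and every test below compares 2 libraries. The other 8 tissues, used below for orientation, were ileum, mammary parenchyma and frontal cortex of juvenile females, skeletal muscle, uterus, blood cells and mammary gland at d 90 of lactation of adult females, and testis of an adult male. The members were autosomal CG sites read 8 times or more in each of the 2 libraries, matched on chromosome, position and strand. There were 62110 such sites, 13.7 % of the 452664 autosomal CG sites covered in any of the 10 tissues. They made up 44.1 % of the 140858 sites of rumen and 31.7 % of the 195766 sites of abomasum. The tissue labels could not be checked against marker genes, because no gene annotation of the build was used here.

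The rumen is the large fermenting forestomach of ruminants and is lined by a stratified squamous epithelium. The abomasum is the glandular stomach, whose mucosa secretes acid and pepsinogen. Both walls also hold smooth muscle, connective tissue, vessels, nerves and blood, so a methylation level of whole tissue is an average over cell types. In mammals a CG is a palindrome, and its cytosines on both strands usually carry the same methylation. CG-dense islands are mostly unmethylated, and methylated sites prevail elsewhere in the genome.

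The sequences of regions that differed on both strands are given first. They are the CG runs of the 7 regions with the largest such difference lower in rumen, in that order, and of the 1 region higher in rumen, all chosen after their values were seen and described further below. Each run is the forward strand of UMD3.1, rebuilt from the 5-base contexts that accompany the deposited cytosines, and capitals mark each CG. The chromosome 29 region is given in 2 runs because the stretch between them was not spelled out by these contexts.
chr11:105740091-105740142: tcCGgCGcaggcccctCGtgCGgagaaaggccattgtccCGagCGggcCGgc
chr29:49452998-49453046: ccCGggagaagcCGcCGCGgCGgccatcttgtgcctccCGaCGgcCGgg
chr29:49453087-49453135: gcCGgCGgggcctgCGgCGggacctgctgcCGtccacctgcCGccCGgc
chr6:107287991-107288042: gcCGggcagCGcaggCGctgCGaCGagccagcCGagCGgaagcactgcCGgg
chr11:105652105-105652153: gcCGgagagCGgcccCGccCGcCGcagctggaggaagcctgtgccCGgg
chr12:83053978-83054008: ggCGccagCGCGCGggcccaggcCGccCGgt
chr4:114733620-114733668: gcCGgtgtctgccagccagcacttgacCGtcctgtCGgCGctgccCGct
chr18:54379922-54379972: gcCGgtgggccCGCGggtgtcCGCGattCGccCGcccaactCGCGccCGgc
chr13:12291666-12291718: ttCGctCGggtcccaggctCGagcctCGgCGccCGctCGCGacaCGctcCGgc

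The abomasum library stood apart in depth. Its median was 9 reads per autosomal CG site, and 30.8 % of its sites were at the minimum of 8 reads, against a median of 26 reads and 3.83 % of sites in rumen. At shared sites the medians were 34 reads in rumen and 12 in abomasum, and abomasum had fewer reads at 88.8 % of them. Both libraries were therefore drawn down to the lower read number at each site (thinned) before levels were compared. The median was then 12 reads, with quartiles of 9 and 16, and 13.2 % of sites kept more than 20. Read counts are not corrected for PCR copies, so intervals cover counting error only.

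At the shared sites the 2 stomach compartments had nearly the same mean methylation level. Rumen was at 30.5 % and abomasum at 31.2 %, a difference of -0.614 points (percentage points, rumen minus abomasum). The value depended on the weight of deep sites: it was -2.50 points weighted by thinned reads and -0.0929 points with at least 20 reads in both libraries. Over all sites of each library the difference was -7.74 points, from 29.6 % in rumen and 37.3 % in abomasum. The wider gap came with the sites that only 1 of the pair covered. The 133656 unshared sites of abomasum averaged 40.2 %, and the 78748 unshared sites of rumen averaged 28.9 %. Their median depths were 9 and 20 reads.

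Most sites were alike. Levels were equal at 56.7 % of the shared sites, and no methylated read was left in either library at 46.0 %. Pearson's r across sites was 0.952, a description since sites share libraries and fragments. A difference of at least 25 points was present at 4510 sites. Rumen was lower at 2596 of them (4.18 % of the sites tested) and higher at 1914 (3.08 %). Changes from one extreme to the other were few: 32 sites were below 20 % in rumen and above 80 % in abomasum, and 17 were the reverse.

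**Figure D1:**
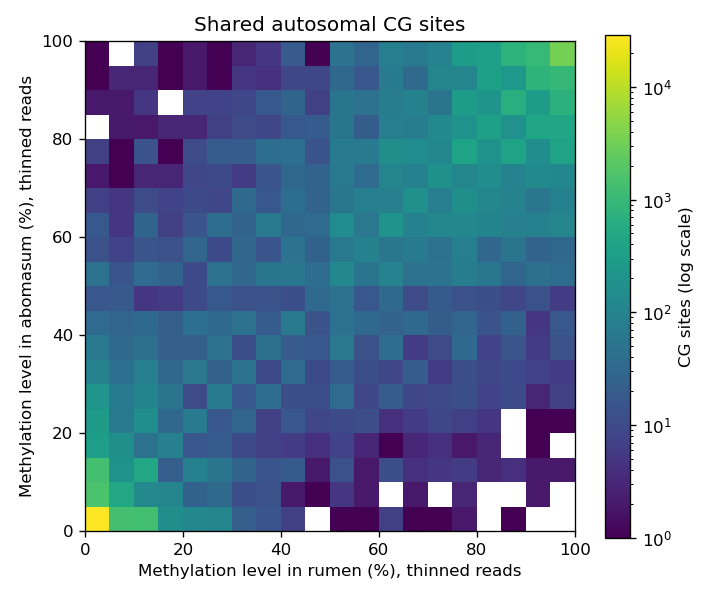
Methylation level in rumen (x axis, %) against abomasum (y axis, %) at the 62110 shared sites after thinning, as the number of sites in squares of 5 by 5 points (colour, log scale). Most sites lie in the corner of low levels or the corner of high levels, with a spread between them.

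In points, the difference was largest where the other tissues were partly methylated. The 51227 shared sites covered in all 10 tissues were divided by the mean level of the other 8 tissues, which did not enter the comparison. This division was made after the values had been seen. Where the other tissues averaged 20 to 40 %, rumen was at 20.8 % and abomasum at 28.3 %, a difference of -7.48 points over 1369 sites. Abomasum was near the mean of the other tissues in this class. Rumen was the lowest of the 10 by a small margin, with testis next to it at 21.1 %. Testis and the rest of the 8 set the class while rumen did not, so this place is a description only. The difference was negative on 26 of the 29 autosomes, at -7.76 points on the forward and -7.23 points on the reverse strand. Averaged over the 508 regions that hold these sites it was -6.70 points, with 322 regions lower and 149 higher in rumen.

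The neighbouring classes showed differences in the same direction, smaller in points, over all their sites. At sites of 5 to 20 % in the other tissues rumen was at 5.67 % and abomasum at 7.89 %, and all 29 autosomes were negative. Rumen was again the lowest tissue, with the same limit. At 40 to 60 % the difference was -4.14 points, and at 60 to 80 % it was -1.54 points. With at least 20 reads in both libraries the last of these turned to 1.37 points, and the 40 to 60 % class moved to -1.14 points, while the 20 to 40 % class was at -7.74 points over 450 sites and the 5 to 20 % class at -5.89 points over 744 sites. At the ends the libraries were close, at -0.172 points below 5 % and 0.976 points above 95 %.

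**Figure D2:**
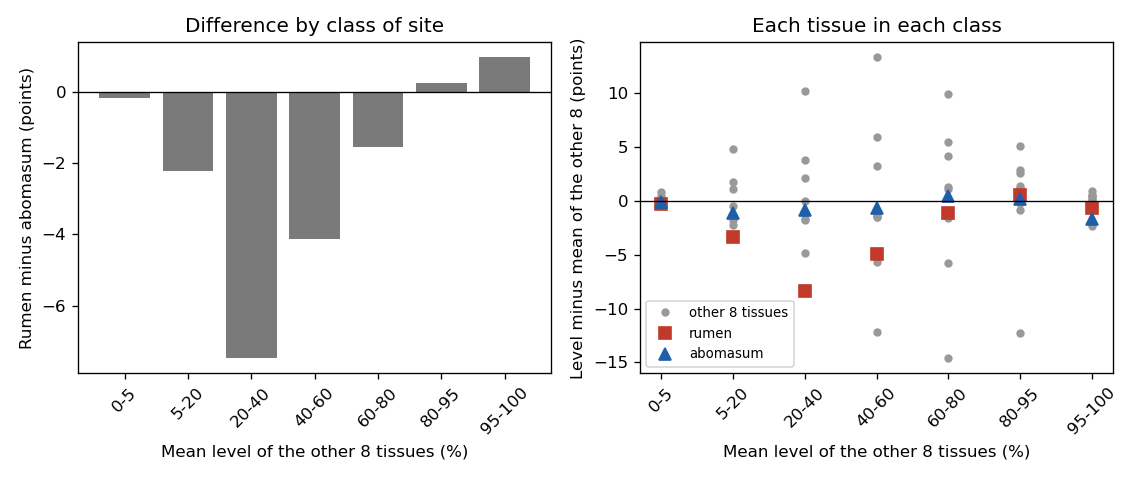
Left, mean rumen minus abomasum level (points) in classes of sites set by the mean level of the other 8 tissues (x axis, %). Right, the level of each tissue minus the mean of the other 8 (points) in the same classes. The deepest bar, -7.48 points, is the 20 to 40 % class, where rumen is the lowest point, just below testis, and abomasum lies near 0.

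Sites that set 1 of the other 8 tissues apart were also examined, again after values had been seen. A site was taken where that tissue differed by at least 25 points from the median of the other 7. At the 725 sites where ileum, the last part of the small intestine, was higher, rumen was at 37.0 % and abomasum at 45.4 %, against 73.6 % in ileum. At the 1659 sites where blood cells were higher, rumen was at 33.7 % and abomasum at 39.4 %. At the 352 sites where blood cells were lower, the pair was equal within 0.271 points. At the 1145 sites where mammary parenchyma was lower, rumen was at 60.5 % and abomasum at 67.3 %. Where lactating mammary gland was lower the difference was -5.55 points. Where 1 of the remaining tissues was lower it ran from -3.54 points (skeletal muscle) to 0.271 points (blood cells). Rumen was lower than abomasum by more than 5 points also where skeletal muscle, testis, uterus or frontal cortex was higher, but the difference was -1.95 points where lactating mammary gland was higher and 0.248 points where mammary parenchyma was higher. The rest of the tissues had medians of 28.5 to 43.0 % at the sites higher in 1 tissue. In the classes at these levels rumen already differed from abomasum by -7.48 or -4.14 points. At the sites lower in 1 tissue the medians were 67.2 to 80.7 %. The classes of 60 to 80 % and 80 to 95 % differed by -1.54 and 0.244 points.

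Against all pairs of tissues, rumen and abomasum were among the closer ones. With every library thinned to 8 reads over the 51227 sites, their mean absolute difference was 6.94 points, the third smallest of 45 pairs, which ranged from 6.72 to 11.4 with a median of 7.61. By Pearson's r, the measure planned for this comparison, the pair ranked 6 of 45, at 0.9374 beside a median of 0.9275. The rank thus depended on the measure. Rumen was the nearest tissue to abomasum. The nearest to rumen was mammary parenchyma, at 6.85 points, followed by abomasum.

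With thinned reads, the difference between the libraries was no larger than the difference between the strands of 1 library. At 14878 CG pairs with both strands covered, all 4 levels were thinned to the same reads. The strands differed by 5.88 points on average in rumen and by 6.41 in abomasum. The libraries differed by 5.40 points on the forward and 5.52 on the reverse strand, 0.889 of the strand difference. The differences seen on the 2 strands had r = 0.163 across these pairs. With all reads the strands differed by 4.83 points in rumen and 6.02 in abomasum, and the libraries by 4.86 and 4.95. With at least 20 reads (1419 pairs) the strand differences were 12.9 and 12.8 points, and the library differences 8.60 and 8.35. Depth and the set of sites changed together here. The part of counting error in the strand differences was not tested.

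Single sites were tested by Fisher's exact test (two-sided) on thinned reads, with Benjamini-Hochberg adjustment over all 62110 sites, and were called at q below 0.01 with a difference of at least 25 points. Called sites numbered 66 higher in rumen (0.106 %) and 40 lower (0.0644 %), 106 in all (0.171 %). With all reads in place of thinned reads the calls were 99 higher and 105 lower, so the balance of directions rested on thinning, and with every site thinned to 8 reads there were 0 in each direction. At an unadjusted p below 0.05 thinned reads gave 1813 of the 62110 sites, 749 higher and 1064 lower. This was a smaller share of the sites tested than the threshold of 0.05. At 56.7 % of the sites, however, the levels were equal, and the test could not reach the threshold there. The share therefore does not say whether differences exceeded counting error. The fewest reads at a called site were 11, and 40.2 % of the shared sites had fewer. Calls were made at 0.0142 % of sites with 11 to 15 reads and at 2.23 % of those with 41 to 100. Called sites had a median of 59.5 reads.

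The largest calls lower in rumen were led by 2 sites without a methylated read in rumen. At position 37932872 of chromosome 22 (reverse strand) rumen had 0 of 33 methylated reads, and abomasum had 30 of 33 (90.9 %, exact 95 % binomial interval 75.7 to 98.1 %, q = 2.32e-12). The other 8 tissues were between 2.78 and 14.6 % there, so abomasum was the high one. Its 2 neighbours on the same strand differed by 36.4 points on average in the opposite direction. The neighbour at position 37932866 was itself called higher in rumen, by 69.7 points. At position 11956007 of chromosome 8 (reverse strand) rumen had 0 of 11 methylated reads and abomasum 11 of 11 (q = 0.000917). The 3 other calls lower in rumen that were largest were at position 63154039 of chromosome 16, 41740961 of chromosome 4 and 31941250 of chromosome 28, with differences of -85.7, -83.3 and -82.6 points. At the chromosome 16 site, where 14 reads were compared, the opposite strand was at 88.0 % in rumen and 87.8 % in abomasum over 907 reads.

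Among calls higher in rumen, position 40478041 of chromosome 26 (forward strand) had the most reads of the 5 largest. Rumen had 57 of 62 methylated reads (91.9 %, interval 82.2 to 97.3 %) and abomasum 13 of 62 (interval 11.7 to 33.2 %, q = 2.67e-13). The other 8 tissues lay between 68.8 and 93.5 %, with abomasum alone below them. On the same strand, position 40478047 was called the opposite way (-38.7 points, q = 0.00184) and position 40478055 the same way (59.0 points). The 4 further calls were at position 49016642 of chromosome 13, 28586900 of chromosome 27, 12125109 of chromosome 7 and 74775079 of chromosome 8, with differences of 85.7, 84.4, 75 and 72.2 points. At the chromosome 7 site abomasum was at 25 %, and the 7 other tissues covered there were between 88.9 and 100 %.

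Single-site calls were mostly not shared by the CG on the other strand. The opposite cytosine was tested at 42 called sites and differed in the same direction at 15 (35.7 %, exact 95 % interval 21.6 to 52.0 %, taking the sites as independent). It passed 25 points at 2, and none was called itself. In the direction of the call the median difference was -3.40 points on the opposite strand, beside a median absolute difference of 44.2 points at the called cytosines. Neighbours within 200 bp on the same strand differed by a median of 3.70 points at 98 called sites, and by more than 25 at 9. Of the called sites 48 lay within 20 kb of another one. With all reads in place of thinned reads the share in the same direction was 54.4 %.

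**Figure D3:**
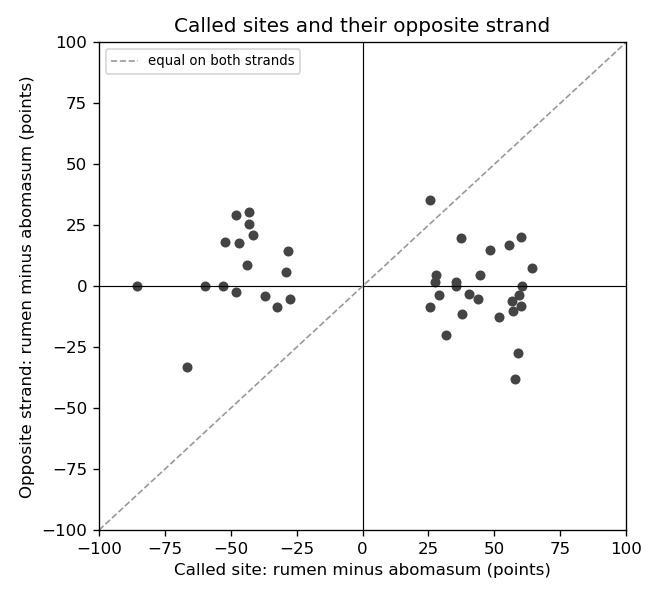
Rumen minus abomasum (points) at each called site (x axis) against the same difference at the cytosine on the opposite strand (y axis), for the 42 called sites with both tested. Points lie far from the dashed line of equal differences, and 15 of 42 have the same sign on both axes.

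Abomasum lay outside the other tissues at more of the called sites than rumen did. Of the 90 called sites covered in all 10 tissues, abomasum alone lay more than 10 points outside the range of the other 8 tissues at 51, and rumen alone at 6. At 33 neither did. The sites were called on the difference between these 2 libraries, and the share over all 51227 sites covered in all tissues was not computed. Abomasum was also the shallowest of the 10 libraries, with a median of 9 reads per autosomal CG site. Sites at CCGG, the end of an MspI fragment, were called more often, at 38 of 8641 (0.440 %), than other sites, at 68 of 53469 (0.127 %). Their part in the calls was not tested. Of the called sites, 64 lay in the study's list of differentially methylated islands, which was chosen on these samples and is no independent evidence.

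Regions were then formed from at least 5 shared sites with gaps of at most 200 bp. There were 5116, with a median of 9 sites and 43 bp. No region had both a mean difference of at least 25 points and 3 called sites, in either direction. By size alone, 65 regions were lower in rumen (1.27 %) and 16 were higher (0.313 %). This rule by size, and the rule on both strands that follows, were added after the planned rule had returned no region. Where at least 2 sites were covered on each strand (2601 regions), 13 were lower by 25 points on both strands (0.500 %) and 1 was higher (0.0384 %). The strands need not cover the same CGs. Among the 13, the regions on chromosomes 16 and 21 had no CG covered on both strands.

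Regions lower in rumen on 1 strand were mostly lower on the other strand too, by a smaller mean difference. The share of lower regions among all regions with both strands is not given here. Of 42 regions lower by 25 points on the forward strand, 34 had the same sign on the reverse strand, with a mean of -16.7 points there, and 13 passed 25 points. Of 47 chosen on the reverse strand, 38 had the same sign on the forward strand, with a mean of -16.9 points. For regions higher in rumen the other strand averaged 6.62 points (16 chosen on the forward strand) and 2.58 points (23 chosen on the reverse strand). The sign was the same in 8 of the 16 and 15 of the 23, and 1 region in each set passed 25 points. Over all 2601 regions with both strands the 2 strand differences had r = 0.325. Single CGs recurred less. Of 547 CGs lower by 25 points on the forward strand, 298 had the same sign on the reverse strand, with a mean of -8.75 points. Of 367 higher ones 162 had the same sign, with a mean of 2.40 points. Both strands come from the same DNA sample, so this recurrence does not speak to other animals.

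In the region with the largest difference among those past 25 points on both strands, at 105740093 to 105740140 of chromosome 11, all 12 sites were lower in rumen by at least 25 points. Site levels ran from 0 to 41.7 % in rumen, and the lowest of the abomasum sites was above this, with the highest at 90.9 %, so the libraries did not overlap. The means were 21.1 and 75.6 %, with differences of -66.7 points on the forward and -42.4 on the reverse strand. With all reads rumen was the lowest of the 10 tissues, below mammary parenchyma (25.4 %), frontal cortex (25.6 %), skeletal muscle (33.2 %) and lactating mammary gland (40.1 %). Abomasum was among uterus (73.1 %), ileum (83.0 %), testis (86.4 %) and blood cells (97.6 %). The 10 tissues thus fell into a low and a high set, with rumen and abomasum on different sides.

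The region at 49453000 to 49453133 of chromosome 29 held 19 sites, all lower in rumen. The means were 23.6 and 76.2 % from a mean of 9.37 reads per site. Lactating mammary gland (34.0 %), testis (39.1 %) and skeletal muscle (40.1 %) were nearest to rumen, and blood cells were highest at 89.4 %. At 107287993 to 107288040 of chromosome 6 all 14 sites were lower in rumen, with means of 6.63 and 52.4 %. Rumen was at 12.5 % there with all reads, next to mammary parenchyma at 15.2 %.

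At 105652107 to 105652151 of chromosome 11, which lies near the first region, all 10 sites were lower in rumen. The means were 7.68 % in rumen and 52.8 % in abomasum. The other 8 tissues were between 31.7 % in frontal cortex and 90.9 % in testis, so rumen alone lay outside them. At 54379924 to 54379970 of chromosome 18 the means were 21.4 and 54.1 % over 18 sites. Both lay within the range of the other tissues, 19.5 % in testis to 55.1 % in ileum.

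The region at 83053980 to 83054006 of chromosome 12 was, of those past 25 points on both strands, the one where abomasum departed from low levels in the other tissues. Its 12 sites averaged 1.85 % in rumen and 41.4 % in abomasum, and the 7 other tissues covered were between 2.35 and 9.77 %. Abomasum reached 66.7 % at single sites, and its levels were higher on the reverse than on the forward strand. Some regions covered on 1 strand had the same form, such as the one at 120474910 of chromosome 3, with abomasum at 58.2 %, rumen at 5.36 % and the other 8 tissues between 0 and 8.65 %.

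The region higher in rumen, at 12291668 to 12291716 of chromosome 13, averaged 83.6 % in rumen and 29.8 % in abomasum. Of its 18 sites 17 were higher in rumen by at least 25 points. Of the other tissues lactating mammary gland was covered, at 82.1 %.

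**Figure D4:**
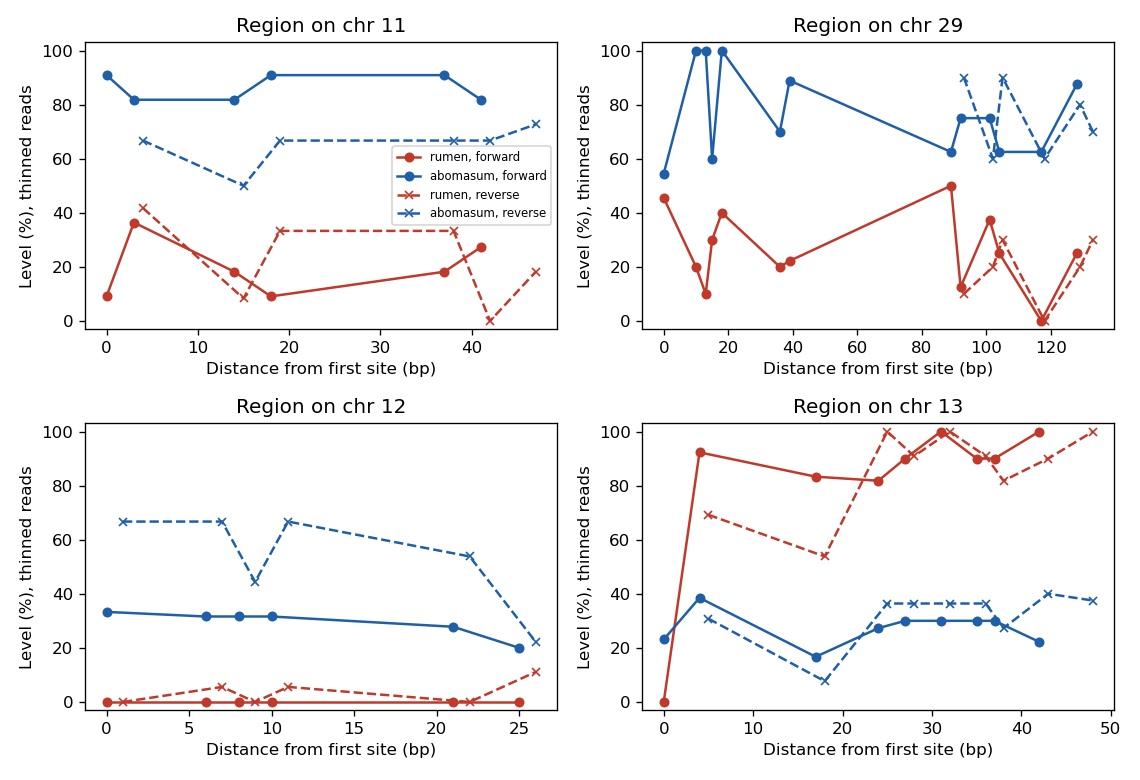
Thinned methylation level (%) of each CG cytosine by distance from the first site (bp) in 4 regions, for rumen (red) and abomasum (blue), forward strand solid and reverse strand dashed. Rumen is below abomasum at every site of the regions on chromosomes 11, 29 and 12, and above it at 17 of 18 sites on chromosome 13.

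The 7 further regions lower on both strands had rumen means between 30.6 and 62.7 % and abomasum means between 61.7 and 91.7 %. They were on chromosomes 4, 6, 10, 16, 18, 19 and 21. With all reads 11 of the 13 kept a difference of at least 25 points. The regions at 8922680 of chromosome 19 and 2679963 of chromosome 16 moved to -21.0 and -23.5 points.

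Rumen was the lowest tissue in most of these regions, usually by a small margin. The regions were chosen for rumen levels at least 25 points below abomasum, so the choice itself favoured a low place of rumen. The share over all regions was not computed, so the counts below are a description of the chosen regions only. Of the 12 lower regions covered in all 10 tissues, rumen alone lay outside the range of the other 8 tissues in 8, abomasum alone in 0, and neither in 4. With the margin of 10 points used for the called sites, rumen alone lay outside in 2, abomasum in 0 and neither in 10. Among the 65 regions lower by size alone, 53 were covered in all tissues, and with no margin rumen alone lay outside in 19, abomasum alone in 5, both in 4 and neither in 25. With 10 points these were 9, 3, 1 and 40. Blood cells were above abomasum in 32 of 63 of these regions and ileum in 33 of 61. Median levels in these lower regions were 26.2 % in rumen, 64.2 % in abomasum, 71.9 % in ileum and 78.5 % in blood cells. In the regions higher in rumen by size alone, blood cells were above abomasum in 12 of 13 and ileum in 13 of 14. Median levels there were 70.1 % in rumen, 37.1 % in abomasum, 67.8 % in ileum and 91.7 % in blood cells. Blood cells and ileum were thus above abomasum in many regions of both directions. Their mean levels were also above that of abomasum in every class of sites set by the other 8 tissues. In the class of 20 to 40 % they were 39.4 % in blood cells, 33.0 % in ileum and 28.3 % in abomasum. This order is therefore not particular to the chosen regions. The part of blood or other immune cells in the level of either stomach wall was not tested.

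A test of regions used 1 cytosine per strand, because a read counts at every site it covers. The middle site of each strand was taken, the reads of both were summed, and Fisher's exact test was adjusted over 5116 regions. At q below 0.01 and 25 points, thinned reads called 6 regions higher (0.117 %) and 5 lower (0.0977 %). At an unadjusted p below 0.05 there were 74 and 130, together a smaller share of the 5116 regions than the threshold of 0.05. Regions with equal levels at the tested cytosines cannot reach it, so this share has the same limit as that of the sites. All reads called 16 higher (0.313 %) and 24 lower (0.469 %). Most of these calls were differences at the tested cytosines alone: the mean over all sites of the region also passed 25 points in 1 of the 6 and 2 of the 5 with thinned reads, and in 2 of the 16 and 9 of the 24 with all reads. This test was added after the data were seen, and it replaced a first version on the most covered site of each strand after the counts of that version were known. The first version gave 12 higher (0.235 %) and 10 lower (0.195 %) with thinned reads, and 23 higher (0.450 %) and 22 lower (0.430 %) with all reads. With the region mean past 25 points as well, the first version left 1 higher and 2 lower with thinned reads, as the middle site did.

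Of the 13 regions lower on both strands, the middle-site test called 2 with thinned reads and 6 with all reads. The 2 were on chromosome 12 (q = 0.00160, 1 against 18 of 37 reads) and at 105652107 of chromosome 11 (q = 0.00941, 0 against 13 of 31 reads). The region at 105740093 of chromosome 11 reached q = 0.0397 with thinned reads and 0.00120 with all reads. The region on chromosome 13 reached q = 0.0184 and 0.00330.

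The mean difference was negative on 24 of 29 autosomes. It was lowest on chromosomes 29, 12 and 24, at -2.09, -1.91 and -1.76 points, and highest on chromosomes 28, 9 and 22, at 1.41, 0.645 and 0.470 points. In the study's list of differentially methylated islands, 698 of 836 held at least 5 shared sites. Rumen averaged 56.8 % and abomasum 60.5 % over them, and 38 islands were lower in rumen by 25 points and 8 higher. The list was chosen by the study on these samples, so its direction is not independent of them.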

How the data were processed

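The authors trimmed reads to a minimum quality of 20, aligned them to UMD 3.1 with a pipeline based on SOAPaligner, and deposited for each cytosine of 1 strand a read count (at least 8) and a methylation level as a fraction of methylated reads. Counts stop at 65535. Methylated reads were recovered as level times count, which was within 0.001 of a whole number at every cytosine.

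Sites were matched between rumen and abomasum, and each was thinned to the lower count by a hypergeometric draw with a fixed seed (Python 3.11.15, NumPy 2.4.6, SciPy 1.17.1). Fisher's exact test per site was adjusted by Benjamini-Hochberg, and the calling code was tested on simulated data. With 1 library per tissue no test of tissues was possible. Named sites were the 5 called sites with the largest difference in each direction (at most 1 per region), and named autosomes the 3 highest and 3 lowest. The planned rule for naming regions applied to called regions, of which there were 0, so the regions named were chosen after their values were seen. Stage and sex were taken from the study's sample description. The planned comparison of gene lists could not be made, since an annotation of UMD 3.1 was not used here.

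The members and lists were chosen with earlier results of these data known. The size-only and both-strand region rules, the classes by the other tissues, the sites particular to 1 tissue, the counts of regions outside the other tissues and both region tests were added after values were seen. The region test on the most covered site was run first and was replaced by the middle site after its counts were known, because single deep sites differed from their neighbours; the counts of both are reported.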

Additional observations from a re-analysis of the deposited data

How the results depend on the processing

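Alternatives changed 1 choice at a time. No paired analysis was possible because each tissue had 1 library. The mean difference moved to -0.0929 points with at least 20 reads (9109 sites), -0.761 over sites covered in all tissues, -0.529 with strands summed and -2.50 weighted by thinned reads. Calls became 99 higher and 105 lower in rumen with no thinning, against 66 and 40, and calls in both directions became 0 when all sites were thinned to 8 reads. Pearson's r was 0.9600 with no thinning, 0.9337 thinned to 8 reads, 0.9567 and 0.9467 with at least 10 and 20 reads, 0.9585 over sites covered in all tissues and 0.9536 with strands summed, and Spearman's rho was 0.8945. Regions by the planned rule became 3 lower with no thinning, 1 higher and 1 lower with strands summed, and 1 higher and 2 lower with 1 called site needed. Regions by size became 31 higher thinned to 8 reads, 10 higher with at least 10 reads, 10 higher without the 1 % most covered sites, and 1 higher and 7 lower with at least 20 reads. The following alternatives were chosen after seeing the data. The region test gave 6 higher and 5 lower regions on the middle site with thinned reads, 16 and 24 with all reads, and, on the most covered site, 12 and 10 with thinned and 23 and 22 with all reads. The choice of site and of reads thus moved these counts by more than 1.5 times, and the middle site was adopted after the other version had been seen. In the class of 5 to 20 % the difference was -2.66 and -5.89 points with at least 10 and 20 reads and -3.68 without CCGG sites. In the class of 40 to 60 % it was -1.14 with at least 20 reads. In the class of 60 to 80 % it was 1.37 with at least 20 reads, the reverse direction, and -1.06 and -2.07 on the forward and reverse strand. The cause was not tested. The share of called sites with the same direction on the opposite strand was 54.4 % with no thinning. Rumen alone lay outside at 11 called sites with a margin of 0 points and at 2 with a margin of 20 points. The limits are 1 library a tissue, a shallow abomasum library, and region sets defined after values were known.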

Other observations

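The X chromosome was outside the comparison, since the rumen came from a male and the abomasum from a female. At 1409 shared X CG sites, with thinned reads, rumen averaged 26.4 % and abomasum 41.3 %, a difference of -14.9 points. Rumen was lower by at least 25 points at 31.4 % of these sites and higher at 2.63 %, beside 4.18 and 3.08 % of the autosomal sites. Sex and tissue cannot be told apart here.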
